A study of Mus musculus with 12 samples.

Results

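The genes described here carry out antigen presentation by major histocompatibility complex (MHC) class I. They are the heavy chains H2-K1, H2-D1, H2-T23, H2-Q4 and H2-Q7, the light chain B2m, the peptide transporter subunits Tap1 and Tap2, the loading factor Tapbp and the transactivator Nlrc5. They were chosen by gene symbol, and all 10 were found among the 17358 genes of the deposited table. The table holds RNA sequencing libraries of perivascular macrophages of the mouse brain, cells that sit along cerebral blood vessels. The aged group (18 months) has 5 libraries and the young adult group (3 months) has 7, all from C57BL mice of no stated genotype or treatment. The series text calls them biological replicates, but the number of animals and cells behind each library, the sort marker, the sex and the preparation batch are not given in the sources used here. The p-values therefore measure the spread between libraries, part of which may be technical.

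Class I molecules display short peptides of intracellular proteins on the cell surface, where CD8+ T cells and natural killer cells read them. Peptides made by the proteasome are pumped into the endoplasmic reticulum by the Tap1-Tap2 transporter. Tapbp (tapasin) bridges this transporter to empty class I molecules, each a heavy chain paired with B2m, and favours the exchange of weak for strong peptides. Macrophages of the brain border carry class I at their surface and can present antigen to T cells. Nlrc5 is recruited to class I promoters by factors bound to a conserved upstream module, and interferon raises the transcription of most of these genes.

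Class I promoters are known for a kappaB site, an interferon response element bound by IRF factors, and a downstream module that holds a CRE-like site and a reversed CCAAT box. RefSeq promoter windows of GRCm38.p6, 250 bases before to 50 bases after a start, matched 8 of the 10 genes by symbol, and not Tap2 or Nlrc5. For H2-K1, which has 2 annotated starts, the start farthest downstream was used. The windows were searched on both strands for GGGGATT followed by any base and CC (kappaB), AANNGAAA (IRF, N for any base), TGACG (CRE) and CCAAT, and no printed matches overlap. The stretches shown, each read 5′ to 3′ on the strand of its gene, hold the upstream matches of 4 heavy chains and of the light chain, with every match to a motif in capitals. They are shown side by side to let the letters of H2-T23 be set against those of the other heavy chains.
H2-K1, chr17:34000334-34000468, minus strand: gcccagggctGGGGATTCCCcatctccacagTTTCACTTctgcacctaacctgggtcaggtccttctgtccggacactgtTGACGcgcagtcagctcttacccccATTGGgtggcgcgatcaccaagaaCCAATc
H2-D1, chr17:35262913-35263055, plus strand: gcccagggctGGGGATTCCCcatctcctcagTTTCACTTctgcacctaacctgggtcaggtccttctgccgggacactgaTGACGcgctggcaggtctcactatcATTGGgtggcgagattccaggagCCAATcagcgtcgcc
H2-Q7, chr17:35439012-35439153, plus strand: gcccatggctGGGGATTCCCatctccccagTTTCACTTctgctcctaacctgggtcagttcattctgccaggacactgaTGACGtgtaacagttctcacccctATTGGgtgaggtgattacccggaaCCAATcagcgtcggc
H2-T23, chr17:36032739-36032835, minus strand: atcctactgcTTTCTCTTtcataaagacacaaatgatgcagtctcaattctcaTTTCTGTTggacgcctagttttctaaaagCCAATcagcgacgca
B2m, chr2:122147540-122147648, plus strand: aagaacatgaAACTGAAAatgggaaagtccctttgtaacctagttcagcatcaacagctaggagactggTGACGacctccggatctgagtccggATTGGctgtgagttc

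H2-K1, H2-D1, H2-Q4 and H2-Q7 each held all of the motifs in their window, a combination found in 0.0183% of the 32851 promoters in the RefSeq table. That share includes these genes themselves, and the motifs were picked because class I promoters are known for them. In H2-Q4 the upstream CRE match began at base -73 from the start, after the reversed CCAAT match at -79. In H2-K1, H2-D1 and H2-Q7 the CRE match came before the reversed CCAAT match. The kappaB letters alone were in 4 of the 8 matched windows and in 0.268% of all promoters. The H2-T23 window, in contrast, held the IRF and CCAAT letters and neither the kappaB nor the CRE letters. The B2m window held IRF, CRE and CCAAT matches, the Tap1 window CRE and CCAAT matches, and the Tapbp window the CCAAT letters alone. In the H2-T23 and Tap1 windows CCAAT was found on the strand of the gene only, without the reversed form that the other matched windows held. The IRF letters are short and were in 23.9% of all promoters, the CRE letters in 20.8% and CCAAT in 37.4%. A match is a description of the letters, and binding was not measured.

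Library totals ranged from 23214836 to 30628787 estimated counts, and 5 or more counts were held by 8648 ± 736 genes in aged libraries (SD, n = 5) and 9198 ± 869 in young libraries (SD, n = 7). The summed level of 12 perivascular macrophage markers was 11327 to 17831 CPM (counts per 1e+06, scaled by TMM factors) in aged libraries and 12089 to 22317 in young ones, with Pf4 and Ms4a7 the most abundant. A list of 10 microglial markers summed to between 4008 and 6088 CPM in aged libraries and between 3810 and 7498 in young ones, so markers of the labelled cell type were abundant and microglial ones were present too. Lymphocytes also carry class I, and the T cell list summed to at most 31 CPM in aged and 55.7 CPM in young libraries. The natural killer cell list reached 0.684 CPM in aged and 57.6 CPM in young libraries (young median 0.888). Its most abundant genes were Nkg7 and Gzmb, at up to 29.7 and 27.9 CPM in young libraries. The B cell list reached 29.7 CPM in aged and 89.9 CPM in young libraries, most of it Cd79b. The dendritic cell list, most of it Cd209a, summed to 1306 to 2543 CPM in aged libraries (median 1953) and 424 to 2192 CPM in young ones (median 520). The next most abundant gene of that list, Zbtb46, averaged 14.2 CPM in aged and 10.2 CPM in young libraries. Batf3 averaged 6.05 CPM in aged and 7.19 CPM in young libraries, and Xcr1 5.29 CPM in aged and 1.02 CPM in young ones. Ccr7 averaged 0.29 CPM in aged and 0.0155 CPM in young libraries, and Flt3, Itgax and Clec9a 0.03 CPM or less at both ages. The sum of this list is thus mostly the level of Cd209a, and the presence of dendritic cells was not tested. Markers of the choroid plexus epithelium, most of it Ttr, summed to 201 to 1110 CPM in aged libraries and 59.4 to 147 CPM in young ones, without overlap. Kcnj13, the next most abundant gene of that list, averaged 40.8 CPM in aged and 0.375 CPM in young libraries. The part of any of these lists in the class I values was not tested. Aged libraries 1, 3 and 4 lay at -163.8 to -135.1 on the first principal component (15.5% of the variance), with the remaining libraries at -34.03 to 104.

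None of the 10 genes differed between the ages by edgeR's quasi-likelihood test at an adjusted p under 0.05, where 0.0105% of the 9550 tested genes (1 gene) passed. The gene that passed belongs to the list of choroid plexus epithelium markers. At an unadjusted p under 0.05, which 5.97% of all tested genes met, H2-T23 was the only one of the 10, and it was higher in aged libraries (3.85% of all tested genes met this in that direction). The aged and young ranges overlapped for every one of the 10, whereas they did not for 0.597% of tested genes. DESeq2, which called 1.27% of its tested genes, also called none of the 10, and 1 of them had an unadjusted p under 0.05, as did 8.45% of all its tested genes. Nor was any of the 10 called by edgeR with its bias-adjusted estimation, legacy=FALSE (0.398% of all tested genes called) or without aged library 2 (0.755% called). At an unadjusted p under 0.05 there were 2 of the 10 with legacy=FALSE, beside 11.5% of all tested genes, and 2 of the 10 without aged library 2, beside 9.94%. In the lower direction 2.12% of all tested genes and 0 of the 10 had an unadjusted p under 0.05 by edgeR. In that direction 1 of the 10, H2-Q7, did with legacy=FALSE, and 1, H2-D1, did by edgeR without aged library 2 (unadjusted p = 0.0494). H2-Q7 also did by limma on log2(FPKM + 1) (unadjusted p = 0.018) and by edgeR without aged libraries 1, 3 and 4 (unadjusted p = 0.042). The log2 fold change, aged over young, was positive for 6 and negative for 4, with a median of 0.06, beside a median of -0.01 and 49.47% positive over all tested genes. In these libraries fewer cells of a type and less RNA per cell cannot be told apart.

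**Figure D1:**
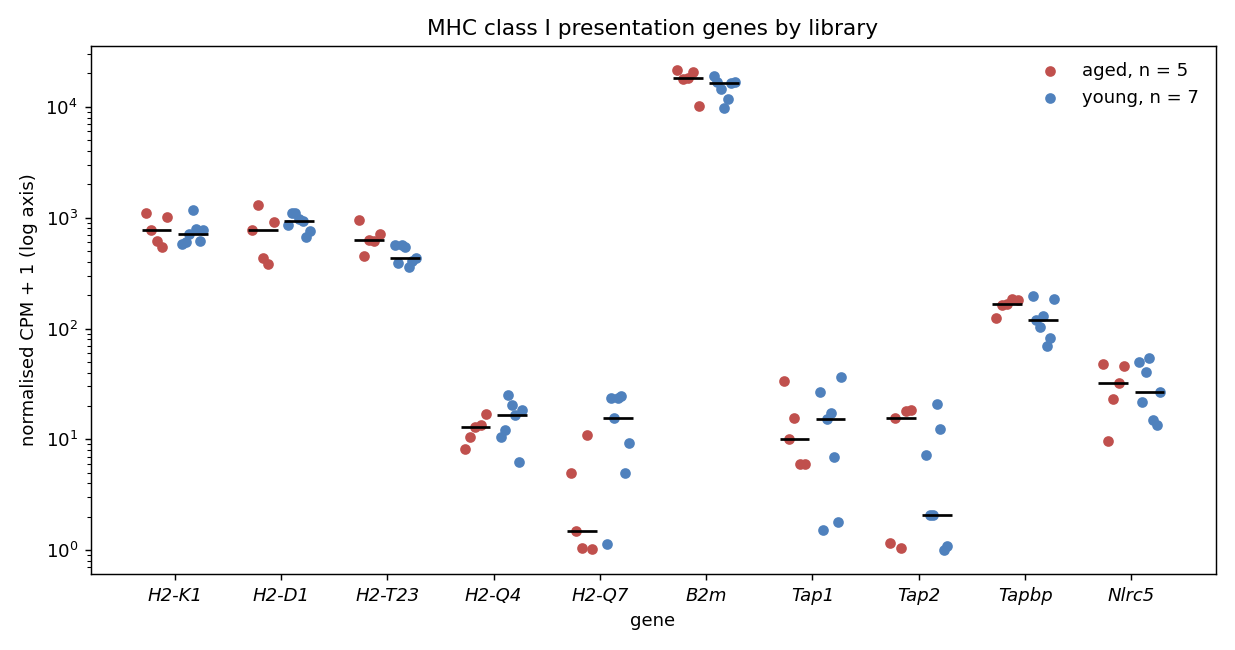
Normalised CPM plus 1 (log axis) of the 10 class I genes in each aged (red, n = 5) and young (blue, n = 7) library; points are libraries and black bars are medians. The aged and young points overlap for every gene, and H2-Q7, Tap1 and Tap2 spread most widely.

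Levels per transcript length, as the deposited FPKM, spanned several orders of magnitude, with B2m at the top, then H2-T23, H2-K1 and H2-D1, then Tapbp, and the rest near the bottom. B2m stood at 20431 ± 3993 FPKM in aged libraries and 19287 ± 2233 FPKM in young ones. In aged libraries H2-T23 had 505 ± 156, H2-K1 470 ± 182 and H2-D1 441 ± 245 FPKM (SD, n = 5), an order whose neighbours lie within each other's spread. In young libraries the order was H2-D1 at 569 ± 129, H2-K1 at 485 ± 188 and H2-T23 at 386 ± 90.3 FPKM (SD, n = 7), again with neighbours within their spread. Tapbp was at 57.7 ± 12.1 FPKM in aged and 47.7 ± 16.1 FPKM in young libraries. The low genes H2-Q4, Tap1, Nlrc5, Tap2 and H2-Q7 averaged 2.15 to 6.30 FPKM in aged libraries and 2.69 to 13.8 FPKM in young ones. Their SDs exceeded the mean for H2-Q7 in aged libraries and for Tap2 in young ones.

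The heavy chains lie on chromosome 17 in the H2 complex, and 8.8% (H2-K1) to 34.9% (H2-Q7) of the 50-base windows of their transcripts also occur in transcripts of other genes. Estimated counts divide such shared reads, so levels of single heavy chains are uncertain. H2-K1 (Entrez 14972, GRCm38.p6 chr17:33996012-34000619), a classical heavy chain that presents peptides to CD8+ T cells, had 1100, 773, 616, 546 and 1010 CPM in the aged libraries. Young libraries ran from 580 CPM through a median of 707 CPM to 1173 CPM. The groups overlapped widely, with young library 4 alone above 796 CPM among the young, and the log2 fold change was 0.11 ± 0.23 (SE) with an edgeR adjusted p of 0.999. Its sign turned to -0.06 on the deposited FPKM and to -0.05 without aged library 1, and it was 0.25 without young library 4.

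H2-D1 (Entrez 14964, chr17:35263094-35267497), the other classical heavy chain of this strain, had 766, 1287, 430, 382 and 919 CPM in the aged libraries. Young libraries ran from 666 CPM through a median of 929 CPM to 1111 CPM. Aged libraries 3 and 4 lay below every young library, aged library 2 lay above every one, and the coefficient of variation was 49.2% in aged and 18.5% in young libraries. The log2 fold change was -0.27 ± 0.27 (SE; edgeR adjusted p = 0.999). It was 0.27 without aged libraries 1, 3 and 4, and -0.54 without aged library 2 (edgeR unadjusted p = 0.0494, adjusted p = 0.499).

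H2-T23 (Entrez 15040, chr17:36029977-36032701) encodes Qa-1, a non-classical heavy chain that displays signal peptides of other class I molecules to the CD94-NKG2 receptors of natural killer cells. It had 959, 452, 624, 609 and 718 CPM in the aged libraries, and 359 CPM (lowest), 428 CPM (median) and 571 CPM (highest) in the young ones. All aged libraries other than library 2 lay above the highest young library. H2-T23 averaged 672 ± 186 CPM in aged libraries (SD, n = 5) and 466 ± 90.7 CPM in young libraries (SD, n = 7). The log2 fold change was 0.53 ± 0.21 (SE), with an edgeR unadjusted p of 0.0242 and an adjusted p of 0.636. Leaving out aged library 1 gave 0.34 and an unadjusted p of 0.137, and leaving out aged library 2 gave 0.65 and an adjusted p of 0.213 by the same edgeR test. The edgeR unadjusted p was 0.0532 without aged library 5 and 0.0577 without young library 2. Without aged libraries 1, 3 and 4 together, so with only aged libraries 2 and 5, the log2 fold change was 0.32 (edgeR unadjusted p = 0.277).

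H2-Q4 (Entrez 15015, chr17:35379617-35384674) and H2-Q7 (Entrez 15018, chr17:35439140-35443773) belong to the Q region, and H2-Q7 encodes Qa-2, a class Ib molecule anchored in the membrane by a lipid tail. H2-Q4 had 7.12, 9.41, 11.9, 12.6 and 16.0 CPM in the aged libraries, and 5.26 CPM (lowest), 15.6 CPM (median) and 24.01 CPM (highest) in the young ones. All aged libraries lay within the young range, and the log2 fold change was -0.36 ± 0.92 (SE; edgeR adjusted p = 0.999).

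H2-Q7 had 3.98, 0.506, 0.05, 10.06 and 0.0335 CPM in the aged libraries, where libraries 3 and 5 held 1 estimated count each, under the floor of 3 counts. Young libraries ran from 0.148 CPM through a median of 14.5 CPM to 23.6 CPM. Every aged library lay below the young median, and the lowest young library lay among the low aged ones. The log2 fold change of -2.22 ± 1.56 (SE) had an edgeR unadjusted p of 0.173 and an adjusted p of 0.999. It was -3.58 without aged library 4 and -5.62 without aged libraries 1, 3 and 4. A share of 19.3% of the 50-base windows of H2-Q7 also occurs in transcripts of its neighbour H2-Q6, so its reads may be divided with that gene.

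Summed over the 5 heavy chains, a quantity that does not depend on how reads were divided among them, the group means were 2252 ± 590 CPM in aged libraries (SD, n = 5) and 2157 ± 331 CPM in young ones (SD, n = 7). This sum still depends on reads shared with genes outside the 5. Examples are H2-Q6 (19.3% of the 50-base windows of H2-Q7) and H2-T-ps (12.9% of those of H2-T23). The sum was 2835, 2523, 1681, 1558 and 2664 CPM in the aged libraries, and 1693 CPM (lowest), 2124 CPM (median) and 2724 CPM (highest) in the young ones. Aged library 1 lay above, and aged libraries 3 and 4 below, the whole young range. Replacing the 5 genes by their sum in the same edgeR fit gave a log2 fold change of 0.06 ± 0.20 (SE; adjusted p = 0.999), and 0.26 without aged libraries 1, 3 and 4.

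**Figure D2:**
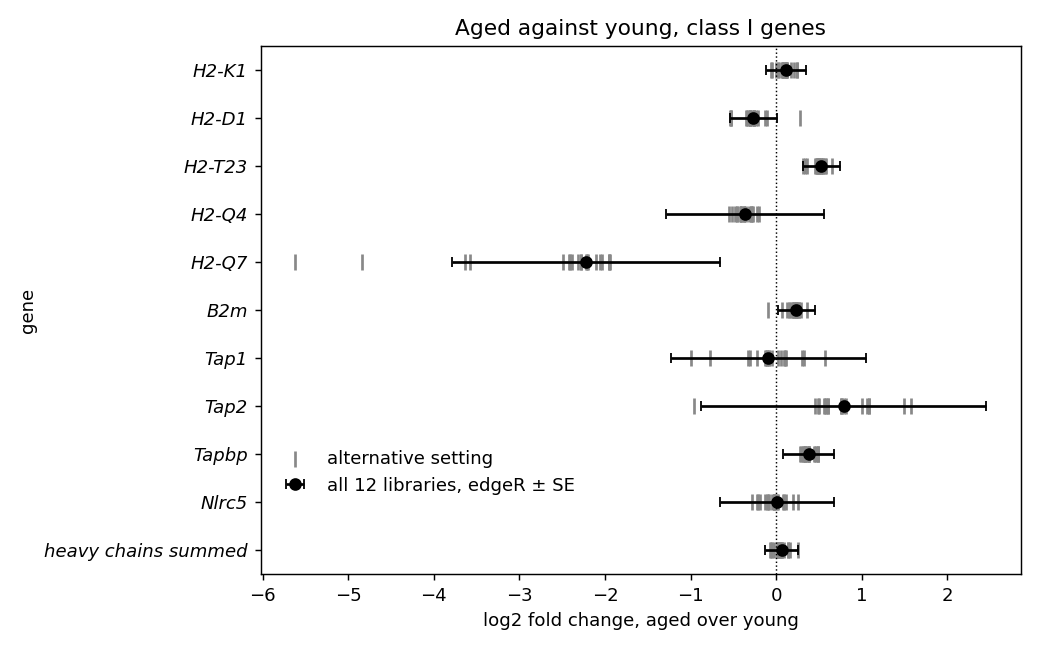
Log2 fold change, aged over young, of each class I gene and of the 5 heavy chains summed (black point, edgeR estimate from all 12 libraries; bar, SE), with the values under each alternative setting as grey ticks. The ticks of H2-T23 and Tapbp stay above 0, those of H2-Q4 and H2-Q7 below 0, and those of the other rows lie on both sides of 0.

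The make-up of the heavy chain pool, as shares of the summed FPKM of the 5 heavy chains within a library, does not depend on library scaling and was described without a test. H2-T23 made up 40.0%, 22.4%, 44.1%, 45.8% and 33.0% of the pool in aged libraries, and 21.1% (lowest), 26.6% (median) and 34.4% (highest) in young ones. H2-D1 made up 24.1%, 47.8%, 22.9%, 21.7% and 31.7% in aged libraries, and 33.1%, 38.4% and 48.2% (lowest, median, highest) in young ones. In aged libraries 1, 3 and 4, those at the negative end of the first principal component, H2-T23 lay above and H2-D1 below the whole young range. H2-D1 was below the young range in aged library 5 as well, and aged library 2 was within the young range for both. Of the 100-base windows of the H2-T23 transcript, 3.4% also occur in transcripts of H2-D1, so reads may be divided between them. The part of that division in these shares was not tested.

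H2-K1 kept a share of 32.6% ± 2.59 in aged libraries (SD, n = 5) and 32.6% ± 5.36 in young ones (SD, n = 7). H2-Q4 and H2-Q7 together were minor, at 0.478% ± 0.197 and 0.208% ± 0.371 in aged libraries, and 0.593% ± 0.216 and 0.876% ± 0.603 in young ones. The ratio of H2-T23 to H2-D1 was 1.66, 0.469, 1.92, 2.11 and 1.04 in aged libraries, and 0.465 (lowest), 0.753 (median) and 0.896 (highest) in young ones. Aged libraries 1, 3, 4 and 5 lay above every young library, and aged library 2 lay at the low end of the young range. The mean share of H2-T23 was 37.0% ± 9.55 in aged libraries and 26.8% ± 4.498 in young ones, a difference of 10.3 percentage points. It was 0.913 points without aged libraries 1, 3 and 4, which leaves aged libraries 2 and 5. Those left out held the highest aged shares of H2-T23, so a smaller difference follows from that choice and does not test the difference. The promoter of H2-T23 is also the heavy chain promoter, among those matched, without the kappaB, CRE and reversed CCAAT letters printed above for H2-D1. Any link between the promoter letters and these shares was not tested.

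**Figure D3:**
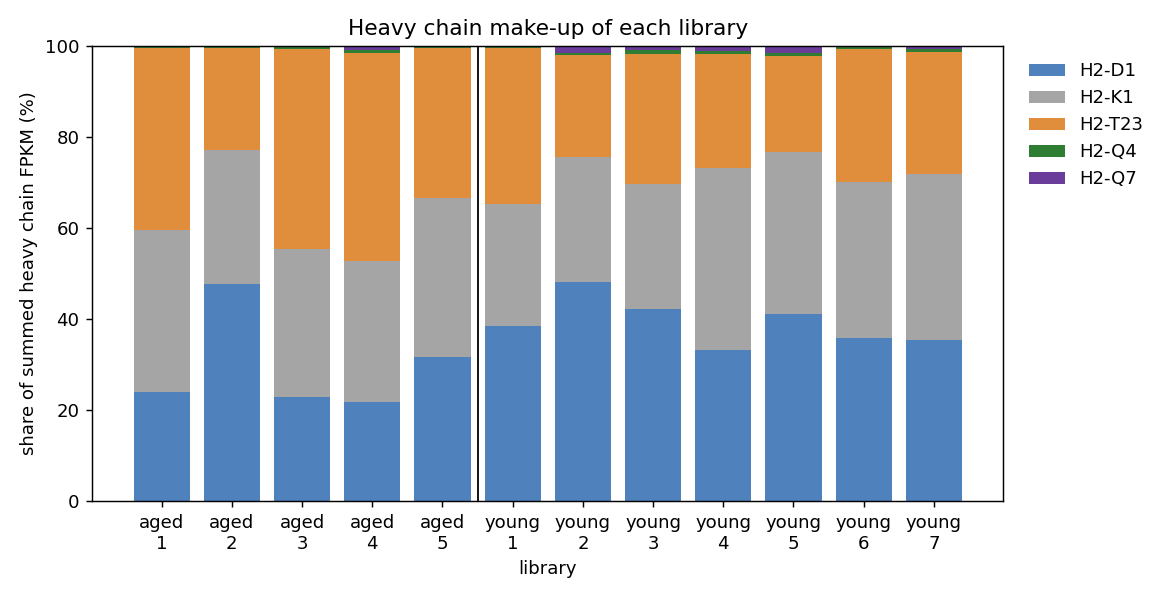
Share of the summed heavy chain FPKM (%) taken by H2-D1, H2-K1, H2-T23, H2-Q4 and H2-Q7 in each library, aged libraries left and young libraries right of the vertical line. H2-T23 takes 40.0% to 45.8% in aged libraries 1, 3 and 4 and at most 34.4% in any young library, while H2-Q4 and H2-Q7 form a thin top edge.

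B2m (Entrez 12010, chr2:122147687-122153082), beta-2-microglobulin, is the invariant light chain without which class I molecules do not fold or reach the surface. It had 21494, 17908, 18036, 20616 and 10127 CPM in the aged libraries. Young libraries ran from 9807 CPM through a median of 16233 CPM to 19132 CPM. Aged libraries 1 and 4 lay above and the rest within the young range. The log2 fold change was 0.24 ± 0.21 (SE, edgeR adjusted p = 0.999). It was -0.09 without aged libraries 1, 3 and 4, the aged libraries with the most B2m. The ratio of B2m to the summed heavy chains on the FPKM scale was 14.2, 14.2, 19.9, 24.3 and 7.39 in aged libraries, and 7.16 (lowest), 15.4 (median) and 18.5 (highest) in young ones. Light chain transcripts thus outnumbered heavy chain transcripts per length in every library of both ages.

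The B2m level was related to the number of genes detected in a library, and not to that measure alone. With the share of counts in the 20 most abundant genes, r was 0.87 (permutation p = 0.00121, adjusted p = 0.0181) and rho 0.48 (adjusted p = 0.445). Within the 7 young libraries r was 0.98 with that share and 0.99 with total counts (exact permutation p = 0.00159 and 0.000397). B2m is itself among the 20 most abundant genes of every library, so a positive r with their share is partly built in. Over all 12 libraries r with total counts was 0.11 (permutation p = 0.721). Across the 12 libraries B2m was lower where more genes had 5 or more counts (Pearson r = -0.83, permutation p = 0.00059, adjusted p = 0.0177 over 30 relations). Spearman's rho was -0.91 (permutation p = 0.00015, adjusted p = 0.0045). Without the 2 libraries farthest from the median number of detected genes, r was -0.69, and within the 7 young libraries it was -0.89 (exact permutation p = 0.00357). H2-K1 ran the other way in the young libraries, with a rho of 0.96 (exact permutation p = 0.00278), but over all 12 its rho was 0.52 (permutation p = 0.083, adjusted p = 0.445). A library with few detected genes therefore had a high B2m CPM in both age groups, and aged libraries 1, 3 and 4, with 8013, 8229 and 8099 such genes, were among those.

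**Figure D4:**
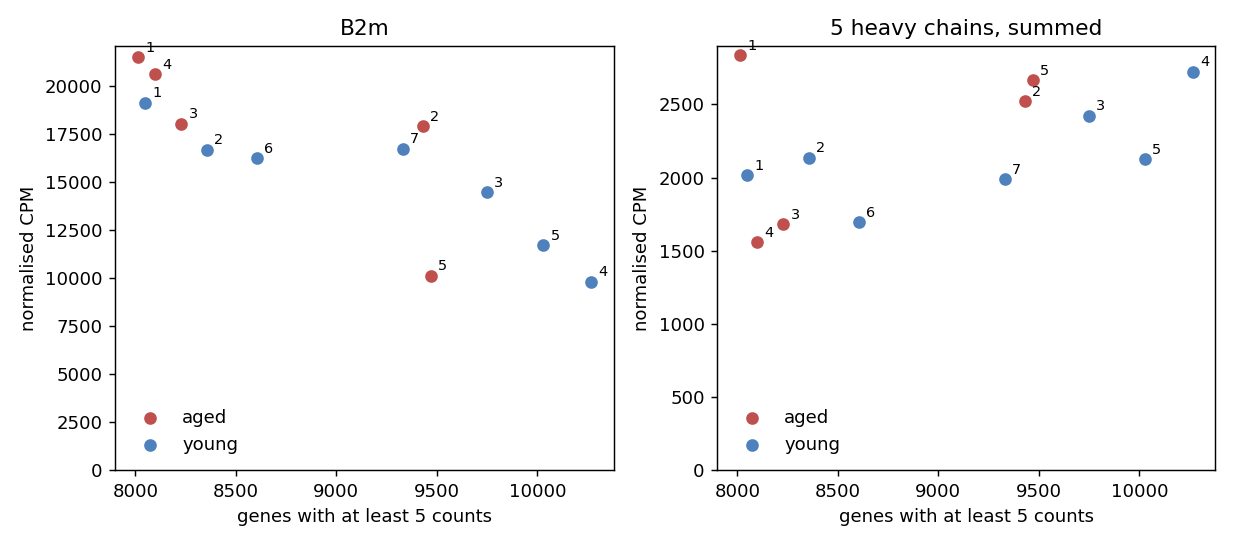
Normalised CPM of B2m (left panel) and of the 5 heavy chains summed (right panel) against the number of genes with 5 or more counts, 1 point per library with its number, aged red and young blue. B2m declines as more genes are detected (rho of -0.91 over 12 libraries), while the heavy chain sum shows aged libraries 3 and 4 lowest.

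Peptide transport genes were low and uneven. Tap1 (Entrez 21354, chr17:34187556-34197225), a transporter subunit, had 32.8, 9.11, 14.6, 4.98 and 4.99 CPM in the aged libraries, and 0.535 CPM (lowest), 14.2 CPM (median) and 35.6 CPM (highest) in the young ones. All aged libraries lay within the young range, and the log2 fold change was -0.09 ± 1.14 (SE; edgeR adjusted p = 0.999), of a sign that changed among the settings. Tap2 (Entrez 21355, chr17:34204479-34216321), its partner subunit, had 0.161, 14.7, 0.05, 16.9 and 17.3 CPM in the aged libraries, and 0 CPM (lowest), 1.08 CPM (median) and 19.96 CPM (highest) in the young ones.

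Aged libraries 1 and 3 held 4 and 1 estimated counts of Tap2, while the other 3 aged libraries held 352 to 518. Young libraries held 0, 3, 30, 32, 167, 359 and 639 counts, a graded spread, and the log2 fold change was 0.79 ± 1.66 (SE; edgeR adjusted p = 0.999). The coefficients of variation of normalised CPM were 87.2% in aged and 92.5% in young libraries for Tap1, and 90.9% in aged and 133% in young libraries for Tap2.

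Tapbp (Entrez 21356, chr17:33919478-33929290), tapasin, had 124, 163, 166, 185 and 181 CPM in the aged libraries, and 69.0 CPM (lowest), 120 CPM (median) and 196 CPM (highest) in the young ones. All aged libraries lay above the young median and within the young range. On the normalised CPM scale its coefficient of variation was 14.8% in aged and 38.2% in young libraries. Its log2 fold change was 0.38 ± 0.30 (SE; edgeR adjusted p = 0.999).

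Nlrc5 (Entrez 434341, chr8:94434335-94527272), the transactivator of class I genes, had 47.2, 8.57, 22.3, 31.2 and 45.0 CPM in the aged libraries, and 12.6 CPM (lowest), 25.8 CPM (median) and 53.1 CPM (highest) in the young ones. Aged library 2 was the lowest of all 12, and the other aged libraries lay within the young range. Nlrc5 averaged 30.8 ± 16.1 CPM in aged libraries (SD, n = 5) and 30.6 ± 16.5 CPM in young ones (SD, n = 7). The log2 fold change was 0.01 ± 0.66 (SE; edgeR adjusted p = 0.999), and aged library 2 was also the aged library with the least H2-T23.

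Between libraries the 10 genes did not vary as 1 block. Of their 45 pairs, 28 had a positive and 16 a negative Spearman rho over the 12 libraries, and 1 (B2m with Nlrc5) a rho of 0, with a median of 0.20, and no pair had an adjusted permutation p under 0.05 by Pearson's r or by Spearman's rho. The closest approach to covariation with the transactivator was H2-T23 with Nlrc5, at r = 0.69 (permutation p = 0.013, adjusted p = 0.585) and rho = 0.61 (permutation p = 0.0404, adjusted p = 0.568). Without the 2 libraries farthest from the median of H2-T23, r was 0.64, and within the 7 young libraries it was 0.92 (exact permutation p = 0.0119). H2-T23 and H2-Q7 ran in opposite directions, with rho of -0.62 (permutation p = 0.0379, adjusted p = 0.568) and r of -0.42 (permutation p = 0.178), for a pair that may share reads.

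H2-K1 and B2m, which form 1 molecule, had r of -0.55 and rho of -0.46 over the 12 libraries (permutation p of r = 0.0636, adjusted p = 0.617). Within the 7 young libraries r was -0.89 (exact permutation p = 0.00933), in libraries where both levels also moved with the number of detected genes. Of 6685 other genes with at least 10 CPM, those whose levels ranked most like the mean standardised level of the 10 over the 12 libraries were Slc7a7 (rho = 0.89), Arfgef1 (0.87), Cdkn1a (0.85), Gltp (0.85) and Cnot2 (0.85). Slc7a7, an amino acid transporter subunit, was at 33.0 ± 25.4 CPM in aged and 20.6 ± 16.2 CPM in young libraries, and Cdkn1a, the cell cycle inhibitor p21, at 55.7 ± 40.9 CPM in aged and 41.9 ± 17.2 CPM in young ones. These 5 were picked for the highest rho, which is a description.

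Around these genes the rest of the pathway gave no call either, in any of 6 lists. Of 16 other class I heavy chains in the table, 7 passed the filter on low counts, 2 with positive and 5 with negative log2 fold changes (median -0.96). H2-M3, which presents N-formylated peptides of bacteria and mitochondria, was at 55.7 ± 50.6 CPM in aged and 108 ± 51.8 CPM in young libraries (log2 fold change -0.96, edgeR unadjusted p = 0.0836). H2-T22, a ligand of some gamma-delta T cell receptors, was at 29.8 ± 26.4 CPM in aged and 13.9 ± 23.1 CPM in young libraries.

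Of the class I-like molecules 5 were tested, 1 positive and 4 negative (median -1.34), and 3 had an unadjusted p under 0.05 by edgeR, which 5.97% of all tested genes met. Cd1d1, which presents lipids to natural killer T cells, was at 0.276 ± 0.544 CPM in aged and 20.8 ± 18.7 CPM in young libraries, with overlap because a young library was at 0 (edgeR unadjusted p = 0.00587, adjusted p = 0.392). Fcgrt, the neonatal Fc receptor heavy chain that also pairs with B2m and recycles IgG and albumin, was at 120 ± 77.0 CPM in aged and 302 ± 88.0 CPM in young libraries (log2 fold change -1.34 ± 0.35 SE, edgeR adjusted p = 0.277). Fcgrt lies outside the rule for named genes and was chosen after its values were seen. Mill2 was at 25.6 ± 27.5 CPM in aged and 1.29 ± 2.61 CPM in young libraries (edgeR adjusted p = 0.592), and Mr1, which presents vitamin B metabolites, at 5.45 ± 8.06 CPM in aged and 31.4 ± 54.9 CPM in young ones.

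All 14 peptide loading and trimming partners were tested, 10 with positive and 4 with negative log2 fold changes (median 0.28), beside 49.47% positive over all tested genes. Of the 14, 3 had an unadjusted p under 0.05 by edgeR, which 5.97% of all tested genes met. The aminopeptidase Npepps was at 42.0 ± 26.2 CPM in aged and 12.8 ± 6.47 CPM in young libraries (edgeR unadjusted p = 0.0364, adjusted p = 0.763), and the peptidase Tpp2 at 94.4 ± 38.2 CPM in aged and 60.3 ± 42.0 CPM in young ones. Calnexin (Canx), the chaperone of new heavy chains, and the endoplasmic reticulum chaperone Hspa5 were the other members with an unadjusted p under 0.05 (named after their values were seen). Canx was at 1554 ± 382 CPM in aged and 1094 ± 155 CPM in young libraries (log2 fold change 0.51 ± 0.19 SE, edgeR adjusted p = 0.576), and Hspa5 at 2227 ± 798 CPM in aged and 1458 ± 396 CPM in young ones (edgeR adjusted p = 0.614). Both aged and young ranges overlapped for each of these genes.

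The immunoproteasome and its activator had 7 tested genes, 2 positive and 5 negative (median -0.12), none with an unadjusted p under 0.05 by edgeR. Its peptide-cutting subunit Psmb8 was at 324 ± 129 CPM in aged and 430 ± 126 CPM in young libraries, and Psmb9, whose gene adjoins Tap1, at 87.3 ± 25.2 CPM in aged and 73.9 ± 24.7 CPM in young ones. Of 27 tested transcription factors and interferon signalling genes, 17 were positive and 10 negative (median 0.24), beside 49.47% positive over all tested genes. Of the 27, 2 had an unadjusted p under 0.05 by edgeR, Nlrc3 and Ifngr2, which 5.97% of all tested genes met. Nlrc3, a member of the NLR family of Nlrc5 that restrains innate signalling, was at 188 ± 69.1 CPM in aged and 91.5 ± 21.7 CPM in young libraries (log2 fold change 1.04 ± 0.29 SE, edgeR unadjusted p = 0.00242, adjusted p = 0.289). Ifngr2, a chain of the interferon gamma receptor that was named after its values were seen, was at 291 ± 95.1 CPM in aged and 200.3 ± 24.8 CPM in young libraries (log2 fold change 0.54, edgeR unadjusted p = 0.0387, adjusted p = 0.774). Irf9, the DNA-binding part of the interferon-activated ISGF3 complex, was at 37.8 ± 40.7 CPM in aged and 69.5 ± 37.4 CPM in young libraries.

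The list of receptors that bind class I, with some of their relatives, had 5 tested genes, 2 positive and 3 negative (median near 0, none with an unadjusted p under 0.05 by edgeR). The inhibitory receptor Lilrb4a, taken as a relative and not as a known receptor of class I, was at 1067 ± 215 CPM in aged and 1069 ± 224 CPM in young libraries. Pirb, which binds class I on myeloid cells, was at 63.4 ± 50.1 CPM in aged and 37.6 ± 21.0 CPM in young ones. The common biological coefficient of variation estimated over all genes was 1.33. The SEs of the 10 class I genes ran from 0.21 (H2-T23, B2m) to 1.66 (Tap2) on the log2 scale, which limits the comparison most for the low genes.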

How the data were processed

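The libraries were made by SMART-seq2 with oligo-dT priming and Nextera XT tagging, per the labels' protocols, which marks neither strand nor molecule: amplified copies count as separate reads, and reads of overlapping antisense genes cannot be told apart. The authors deposited 1 table with estimated counts per gene (expected counts, 88.2% to 90.6% whole in a library) and normalised values read here as FPKM from their scaling with library total and transcript length. The submitters' processing notes list RSEM 1.2.12, HISAT2 2.0.4, DESeq2 1.4.5 and Bowtie2 2.2.5, and the GRCm38 (mm10) build, with no role or order, and no annotation is named there. Gene symbols damaged in the table (24) were repaired by Entrez identifier through RefSeq (GRCm38.p6), which matched 17244 of 17358 and gave coordinates (1-based).

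Counts were rounded and fitted with edgeR 4.0.16 in R 4.3.3 (TMM factors, filterByExpr, legacy estimation, robust quasi-likelihood test), aged against young over all tested genes with Benjamini-Hochberg adjustment at 0.05. A floor of 3 counts is 0.0979 to 0.129 CPM in a library, for counting error only. Correlations used log2(normalised CPM + 1) and two-sided permutation tests (100000 resamples over 12 libraries, exact over 7). Alternatives were DESeq2 1.42.0, limma 3.58.1 (voom, or log2(FPKM + 1)), edgeR with legacy=FALSE, DESeq2 size factors, no filter, a replicate block, the summed heavy chains and libraries left out. The fit was tested on simulated data. No 2 libraries agreed within sampling noise.

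The 10 genes, the pathway lists and the marker lists were chosen with earlier results of these data known. All 10 were named, with, from each pathway list, up to 2 tested genes of at least 10 CPM with the largest positive and the largest negative log2 fold change, of which a part is given. Shared transcript windows were counted in the reference transcripts, and promoters came from RefSeq.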

Additional observations from a re-analysis of the deposited data

Results flagged for a closer look

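H2-K1 stood at 1173 normalised CPM in young library 4, whereas the other 6 young libraries held 580 to 796 CPM. The gap to the nearest library was 0.636 of the whole young range, above Dixon's 95% critical value of 0.568 for 7 samples. The gap was examined in 20 groups (10 genes at 2 ages), of which chance flags about 1. Young library 4 also had the most detected genes (10266) and the lowest B2m of the young libraries (9807 CPM), and the part of either in the H2-K1 level was not tested. Without that library the log2 fold change of H2-K1, aged over young, was 0.25.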

How the results depend on the processing

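None of the 10 class I genes passed the adjusted threshold under any of 20 alternatives (lowest adjusted p = 0.213 by edgeR, H2-T23 without aged library 2), and no pair of them did by Spearman's rho under any alternative tried for the correlations. Over all genes the count of calls was 1 in the edgeR fit, 13 without a filter, 121 with DESeq2, 2 with voom, 38 with legacy=FALSE, 6 on FPKM and 0 without aged libraries 1, 3 and 4, and from 0 to 75 with 1 library left out, highest without aged library 2. Of 220 alternative fold changes of the 10 genes and the heavy chain sum, 189 kept their direction and 31 did not; the cause was not tested.

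On FPKM the log2 fold change was -0.061 for H2-K1, 0.056 for Tap1, -0.080 for Nlrc5 and -0.077 for the heavy chain sum. Without aged libraries 1, 3 and 4 it was 0.27 for H2-D1, -0.091 for B2m and -0.21 for Nlrc5. With voom it was 0.57 for Tap1 and -0.047 for Nlrc5, and for Nlrc5 -0.026 with DESeq2 size factors and -0.024 with DESeq2. With 1 library left out it ran from -0.052 to 0.25 for H2-K1, -0.77 to 0.33 for Tap1, -0.23 to 0.26 for Nlrc5 and -0.056 to 0.16 for the heavy chain sum.

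Replicate numbers did not pair the samples: deviations of same-numbered libraries correlated at -0.0252 to 0.0981, and only aged libraries 1 and 5 correlated best with the young library of their own number. With the replicate block 1 gene was called, none of the 10 class I genes was, and the log2 fold change was 0.30 for Tap1, -0.97 for Tap2, -0.28 for Nlrc5 and -0.052 for the heavy chain sum. Values of H2-Q7 and Tap2 at 0 to 4 counts in a library lie at or near the floor of 3 counts and are imprecise.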
